A study of Mus musculus with 6 samples.

Results

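The genes of cholesterol synthesis and its control by SREBP, the sterol regulatory element-binding proteins, were followed in mouse bone marrow-derived macrophages. The 29 genes were a named list, found by symbol in the deposited table, out of 21959 genes in all. Each gene name matched 1 row, and 26 of the 29 had enough reads to be tested. The RNA-seq libraries came from wild-type macrophages grown from bone marrow and kept for 24 h in 1 part conditioned and 1 part fresh complete medium. The medium had been conditioned for 48 h by alveolar macrophages, which live in the air spaces of the lung, from mice 8 to 12 weeks old and separated by HTR2C, the serotonin receptor 2C. In 3 libraries (N051, N052 and N053) the medium came from HTR2C-negative cells, and in 3 (P051, P052 and P053) it came from HTR2C-positive cells. The labels do not say whether the sample numbers stand for separate animals, cultures or lots of medium, so a p-value here sets a difference against the spread among these libraries, and that spread may be technical. The series has no libraries of macrophages without conditioned medium.

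Cholesterol is built from acetyl-CoA by way of mevalonate, the isoprenoid diphosphates, squalene and lanosterol, and side branches of the same chain supply the lipid groups that anchor many GTPases to membranes. SREBP precursors sit in the endoplasmic reticulum bound to the escort protein SCAP. When sterols are plentiful, INSIG proteins hold SCAP there, and when sterols are scarce the complex moves to the Golgi, where proteases release the factor to the nucleus. SREBP-2, the product of Srebf2, acts mostly on cholesterol genes, and SREBP-1, the product of Srebf1, mostly on fatty acid genes. Activated macrophages are known to make 25-hydroxycholesterol, an oxysterol that blocks this release.

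Total counts were 12843971 to 16031723 per library. The libraries are not evenly alike: N052 and P051, from different groups, had the highest correlation of any pair over log2 CPM (counts scaled to a common library size) of all tested genes (r = 0.978). The factor of the trimmed mean of M values (TMM), which scales library sizes, was 1.127 for P051 and 0.881 to 1.065 for the others. Levels also leaned with the GC content of transcripts to a different degree in each library, with slopes of -0.37, -0.04 and -0.23 log2 units per 10 percentage points of GC in N051, N052 and N053 and 0.28, 0.19 and 0.16 in P051, P052 and P053. The slopes of the groups did not overlap, so this trend and the medium cannot be told apart. Macrophage identity was checked with 7 markers, all of them tested, whose summed level, mostly Lyz2 (16040 to 18643 CPM), was 19983 to 22233 CPM with HTR2C-negative and 19339 to 22607 CPM with HTR2C-positive medium. Of these 1, Csf1r, was higher at an unadjusted p under 0.05 with groups apart (log2 fold change 0.63, unadjusted p = 0.00512, edgeR adjusted p = 0.141). Another, Adgre1, was highest in N052 and P051, at 1095, 1694 and 1073 CPM and at 1846, 896.6 and 921.5 CPM. Its log2 fold change was -0.08, and -0.48 in the edgeR fit without P051 (unadjusted p = 0.0225). Of 8 neutrophil markers, 7 were tested and 2 (S100a9 and Camp) were higher at an unadjusted p under 0.05. The sum of the 8 was 812.6 to 1017 CPM and 984 to 1230 CPM, and the defining marker Ly6g was at 0 counts throughout. The alveolar macrophage markers, 3 of 7 tested, summed to 126 to 130.0 CPM and 119 to 140.0 CPM. The sums of the mast cell and basophil markers did not overlap (10.8 to 14.7 CPM and 7.76 to 10.7 CPM, with Cpa3 lower at an unadjusted p of 0.0373), nor did those of T, NK and B cells (0.538 to 1.33 CPM and 1.39 to 2.52 CPM). Sums overlapped for dendritic cells (3.27 to 8.39 CPM and 6.35 to 9.76 CPM) and for fibroblasts and stroma (54.5 to 64.4 CPM and 55.7 to 71.5 CPM), and those of epithelium and the erythroid lineage were at most 0.114 and 0.484 CPM. The part of these marker differences in the results below was not tested, and in bulk RNA fewer cells of a type and less RNA per cell cannot be told apart.

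Per length, Insig1 stood far above the rest of the pathway. In the deposited FPKM values, which divide counts by gene length and library total, averaged over the 6 libraries, Insig1, which encodes a sterol-sensing retention protein and is itself an SREBP target, was at 105 FPKM. The next genes were the methylsterol oxidase gene Msmo1 at 11.7 FPKM, the sterol isomerase gene Ebp at 9.82 FPKM, the HMG-CoA synthase gene Hmgcs1 at 9.74 FPKM, the thiolase gene Acat2 at 9.15 FPKM and the sterol desaturase gene Sc5d at 8.07 FPKM. The regulator genes were lower, with Srebf2 at 2.99 FPKM, Srebf1 at 0.797 FPKM and Scap at 0.761 FPKM. At the low end of the tested members were the lanosterol synthase gene Lss at 0.203 FPKM and the genes of fatty acid synthesis Acaca and Fasn at 0.177 and 0.153 FPKM.

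**Figure D1:**
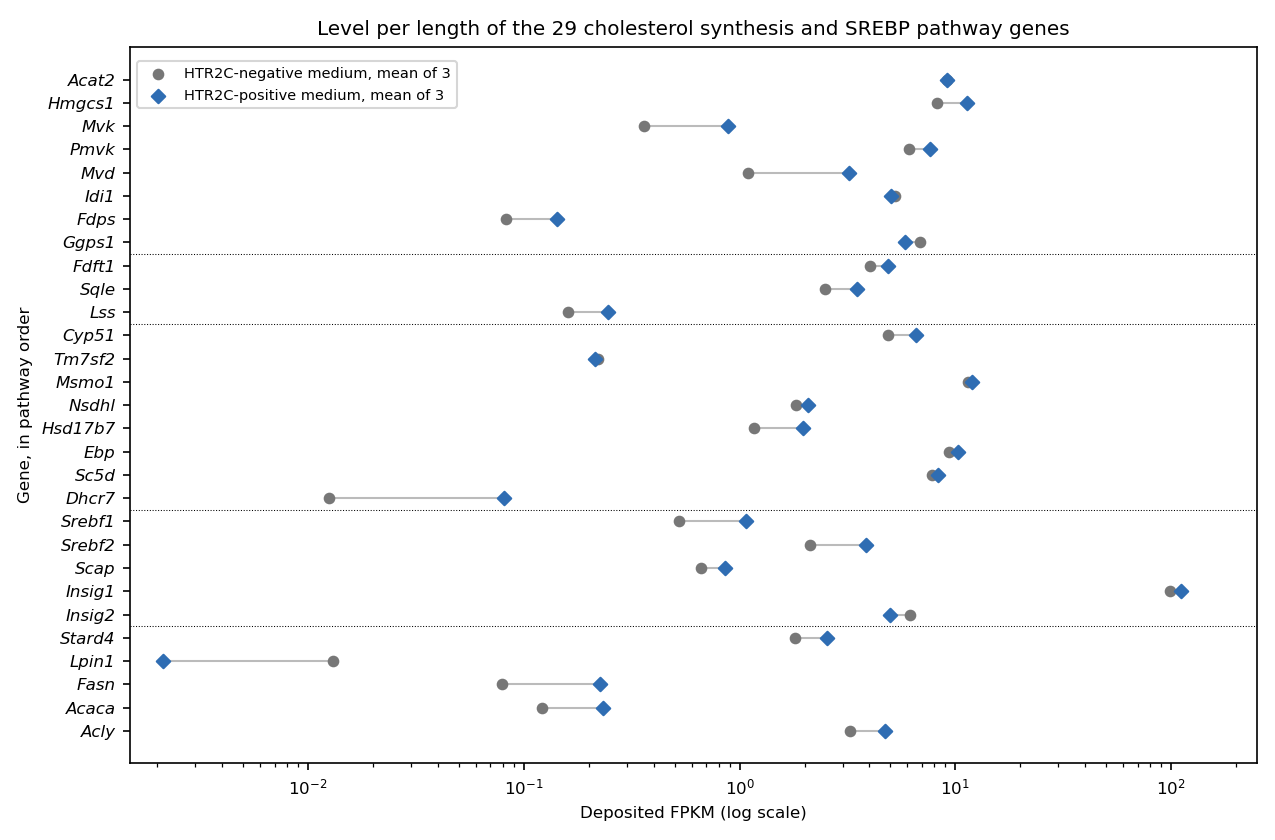
Mean deposited FPKM (log axis) of all 29 genes with HTR2C-negative medium (grey circles) and HTR2C-positive medium (blue diamonds), 3 libraries each, in pathway order with dotted lines between the roles. Insig1 lies at 99.1 and 111 FPKM, and every other gene is under 13 FPKM. Lpin1 and Dhcr7, at the far left, rest on 12 or fewer reads in any library.

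Between the media, no member passed the test, and the smallest p belonged to Mvd of the mevalonate arm, both SREBP genes and Fasn. The edgeR quasi-likelihood test gave 0 of 26 members with an adjusted p under 0.05 (0% of all 10177 tested genes), and the lowest adjusted p among members was 0.0942, for Mvd. Limma-voom also called 0 members, and so did DESeq2 (6.21% of the 6217 genes it gave an adjusted p). DESeq2 left 9 members without an adjusted p, so it could not call them. They were Mvd, Mvk, Srebf1, Fasn, Acaca, Lss, Tm7sf2, Nsdhl and Scap. The unadjusted DESeq2 p of Mvd was 0.000517, and the DESeq2 adjusted p of Srebf2 was 0.0511. Mvd had an adjusted p of 0.0459 in the edgeR fit without N052, in which 1.97% of all genes were called. At an unadjusted p under 0.05, 6 members (23.1%) were higher with HTR2C-positive medium, where 7.90% of all tested genes were, and 2 (7.69%) were lower, where 8.71% of all were. The 6 with higher values were Mvd, Srebf1, Srebf2, Fasn, Acaca and Acly, and the 2 with lower values were Ggps1 and Insig2. The groups did not overlap for 7 members on the higher side (26.9%, against 10.9% of all tested genes), the same 6 and Mvk, and for these 2 on the lower side (7.69%, against 11.5%). The fold change was positive for 19 of 26 members (73.1%, against 52.1% of all tested genes), with a median log2 fold change of 0.26 against 0.02 for all tested genes. Without P051 the median of the members was 0.07, with 17 positive. Scaled by total counts instead of TMM, the medians were 0.39 for the members and 0.16 for all tested genes, and at an unadjusted p under 0.05 there were 6 members higher and 0 lower, with 1150 and 390 of all genes.

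Promoters of the pathway were read from RefSeq windows on GRCm38.p6, from 250 bases before to 50 after each start site, because SREBPs bind sterol regulatory elements together with the CCAAT-binding factor NF-Y. Of the 29 members, 25 had a window. The letters TCACNCCAC, 1 form of the sterol regulatory element, were searched on both strands. They occurred in 1 of these members (4%), Hmgcs1, and in 1.44% of all 27025 genes with a window. A CCAAT box on either strand occurred in 21 of the 25 members (84%) and in 41.1% of those genes. Such matches describe letters and are not evidence of binding. Only exact matches were counted, so a member without these letters may hold another form of the element. The 250 bases before the start are shown for Hmgcs1, the member with the exact letters. They are also shown for Mvd, Srebf2 and Fasn, chosen after their values were seen. These had the smallest p among the members with a single window. The stretches are chr13:119690101-119690350 on the plus strand for Hmgcs1 and chr8:122443423-122443672 on the minus strand for Mvd. For Srebf2 the stretch is chr15:82147019-82147268 on the plus strand, and for Fasn chr11:120824548-120824797 on the minus strand. Each reads 5′ to 3′ toward the start, and capitals mark the element and the CCAAT boxes (ATTGG on the other strand). The element overlaps no box, and the last boxes of Fasn share their middle letters.
Hmgcs1: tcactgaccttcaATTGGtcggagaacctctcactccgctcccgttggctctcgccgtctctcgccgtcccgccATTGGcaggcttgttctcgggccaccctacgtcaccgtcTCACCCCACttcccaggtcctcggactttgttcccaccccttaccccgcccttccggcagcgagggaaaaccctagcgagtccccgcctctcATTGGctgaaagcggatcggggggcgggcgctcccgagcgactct
Mvd: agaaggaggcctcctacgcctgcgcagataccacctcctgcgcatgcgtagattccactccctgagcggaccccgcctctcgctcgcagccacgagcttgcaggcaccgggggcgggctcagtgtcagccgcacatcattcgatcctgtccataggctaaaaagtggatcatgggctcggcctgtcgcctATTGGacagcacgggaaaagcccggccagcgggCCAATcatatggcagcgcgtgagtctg
Srebf2: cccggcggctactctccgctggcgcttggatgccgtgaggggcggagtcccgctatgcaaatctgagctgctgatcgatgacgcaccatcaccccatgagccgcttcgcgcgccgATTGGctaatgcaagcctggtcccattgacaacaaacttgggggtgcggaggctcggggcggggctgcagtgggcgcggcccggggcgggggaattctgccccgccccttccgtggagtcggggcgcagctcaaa
Fasn: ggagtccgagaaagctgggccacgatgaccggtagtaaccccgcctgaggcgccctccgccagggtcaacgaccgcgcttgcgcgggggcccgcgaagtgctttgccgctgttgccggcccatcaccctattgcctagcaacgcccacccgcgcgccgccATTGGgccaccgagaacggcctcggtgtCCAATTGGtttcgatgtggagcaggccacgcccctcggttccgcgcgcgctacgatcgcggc

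In Hmgcs1 the element TCACCCCAC begins at -137 from the start and lies between CCAAT boxes beginning at -176 and -45. Mvd holds boxes at -60 and -27, Srebf2 holds 1 at -135, and Fasn holds 3, at -90, -62 and -59. Hmgcs1 had overlapping groups. Mvd, Srebf2 and Fasn had groups apart, but they were picked for their small p. The sequences shown therefore cannot set members with these letters against members without them.

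The mevalonate arm had both the largest difference of the pathway and genes that went the other way. Mvd (ENSMUSG00000006517, chromosome 8, 123160340 to 123170161 on GRCm39), the decarboxylase that makes isopentenyl diphosphate, was at 2.03, 2.89 and 1.34 CPM in N051, N052 and N053 and at 6.79, 5.89 and 4.41 CPM in P051, P052 and P053. Every HTR2C-positive library lay above every HTR2C-negative one, from 73 to 119 reads against 20 to 42 reads. The log2 fold change was 1.45 (SE 0.36, unadjusted p = 0.00145, edgeR adjusted p = 0.0942), a 2.72-fold difference, and it was 1.32 without P051 (adjusted p = 0.107). Mvk (ENSMUSG00000041939, chromosome 5, 114582330 to 114598652), mevalonate kinase, was at 0.884, 1.72 and 0.336 CPM and at 2.74, 2.25 and 1.75 CPM, in the same order of libraries. Its groups were also apart, narrowly between N052 and P053, but the gene rested on 5 to 25 reads per HTR2C-negative library and 29 to 48 per HTR2C-positive library (log2 fold change 1.19, SE 0.57, unadjusted p = 0.0585).

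Ggps1 (ENSMUSG00000021302, chromosome 13, 14225244 to 14238073), the geranylgeranyl diphosphate synthase at the branch toward prenyl anchors, was at 37.4, 31.4 and 32.9 CPM in the HTR2C-negative libraries and at 26.2, 25.8 and 27.0 CPM in the HTR2C-positive ones. The groups were apart on the lower side, with a log2 fold change of -0.36 (SE 0.16, unadjusted p = 0.0423, edgeR adjusted p = 0.281). It was -0.22 (unadjusted p = 0.218) scaled by total counts and -0.18 (unadjusted p = 0.227) once each library's trend on GC content and length was removed. Idi1, the isomerase of isopentenyl diphosphate, was at 20.6, 17.1 and 20.4 CPM and at 25.8, 11.3 and 12.2 CPM. P051 was the highest of its 6 libraries, and P052 and P053 were the lowest. Its log2 fold change was accordingly -0.24 (SE 0.28) with all libraries and -0.71 without P051 (unadjusted p = 0.00432, edgeR adjusted p = 0.102). Acat2, the thiolase of the first step, was at 27.5, 23.5 and 22.5 CPM and at 25.8, 20.1 and 20.1 CPM (-0.15, SE 0.18). Here too P052 and P053 were below all HTR2C-negative libraries, with P051 among them.

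The entry enzyme Hmgcs1 was at 38.4, 31.5 and 49.7 CPM and at 60.5, 48.0 and 38.6 CPM. P051 was its highest library and the other HTR2C-positive libraries lay within the HTR2C-negative range, with a log2 fold change of 0.30 (SE 0.21) and 0.13 without P051. Pmvk, phosphomevalonate kinase, was at 10.6, 12.0 and 9.95 CPM and at 14.7, 12.1 and 10.3 CPM (0.19, SE 0.22). Its groups overlapped. Fdps, farnesyl diphosphate synthase, was not tested, with 4, 5 and 6 reads and 10, 6 and 12 reads. The table lists a further gene model, Gm43738, on the same strand over 7512 bases of it, and how reads in shared stretches were counted is not given in the sources used here.

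Farther down the chain, P051 stood above the other HTR2C-positive libraries rather than the groups standing apart. Sqle, squalene epoxidase, a rate-controlling enzyme of the sterol branch, was at 12.6, 16.9 and 13.1 CPM in the HTR2C-negative libraries and at 25.4, 13.4 and 15.8 CPM in the HTR2C-positive ones. The values of P052 and P053 were inside the HTR2C-negative range, and the log2 fold change of 0.35 (SE 0.25) was 0.05 without P051. Fdft1, squalene synthase, was at 17.0, 15.7 and 19.6 CPM and at 24.7, 15.7 and 16.1 CPM. Its log2 fold change was 0.11 (SE 0.22) and -0.12 without P051. On the opposite strand, Fdft1 shares 774 bases with the cathepsin B gene Ctsb, which was at a mean of 7456 CPM, and without the strand setting reads of the pair cannot be told apart. Lss, which closes the sterol rings, was at 0.531, 1.93 and 2.89 CPM and at 3.20, 3.04 and 1.33 CPM. The spread within each group exceeded the difference between them (0.48, SE 0.55).

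The lanosterol-to-cholesterol enzymes had no member with groups apart. Cyp51, the lanosterol demethylase, was at 21.3, 18.4 and 28.4 CPM and at 39.8, 24.6 and 17.1 CPM. Its HTR2C-positive libraries spanned from the highest of all 6 (P051) to the lowest (P053), and the log2 fold change of 0.26 (SE 0.28) was -0.11 without P051. Hsd17b7, the ketosteroid reductase, was at 5.48, 6.53 and 6.66 CPM and at 13.7, 5.69 and 8.58 CPM. P051 was again the highest, at 1.92 times the mean of P052 and P053, and the log2 fold change went from 0.58 (SE 0.31, unadjusted p = 0.0818) to 0.22 without it. The abundant Msmo1 was at 75.5, 62.6 and 84.3 CPM and at 83.7, 69.0 and 56.3 CPM, with overlapping groups (-0.09, SE 0.18, and 0.06 scaled by total counts). Sc5d was at 40.4, 34.8 and 44.8 CPM and at 48.2, 28.8 and 37.1 CPM (-0.07, SE 0.20, and 0.09 scaled by total counts). P051 was its highest library and P052 its lowest.

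Ebp was at 20.0, 23.2 and 24.6 CPM and at 21.1, 26.8 and 20.3 CPM (0.01, SE 0.18). Nsdhl, the sterol decarboxylase, was at 5.84, 5.98 and 4.50 CPM and at 6.16, 6.95 and 3.87 CPM (0.06, SE 0.30). Neither had its highest level in P051. Tm7sf2, a sterol reductase gene, had 19, 5 and 17 reads and 19, 17 and 8 reads, too few to place it (-0.22, SE 0.69), and shares 532 bases with Vps51 on the same strand. Dhcr7, the reductase that makes cholesterol in the last step, was not tested. It had 0, 3 and 0 reads in the HTR2C-negative libraries and 12, 8 and 2 reads in the HTR2C-positive ones. A count of 0 allows up to 3 reads, which is 0.234 CPM of the total in N051 and 0.187 CPM in N053, from counting error alone.

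Of the regulators, both SREBP genes had higher values in every HTR2C-positive library. Srebf2 (ENSMUSG00000022463, chromosome 15, 82031382 to 82089580) was at 12.5, 18.5 and 16.5 CPM in N051, N052 and N053 and at 32.9, 23.8 and 21.6 CPM in P051, P052 and P053. Its log2 fold change was 0.72 (SE 0.22, unadjusted p = 0.00562, edgeR adjusted p = 0.145) and 0.54 without P051. Srebf1 (ENSMUSG00000020538, chromosome 11, 60089915 to 60113407) was at 2.65, 3.37 and 3.16 CPM and at 4.51, 7.02 and 5.92 CPM. Its log2 fold change was 0.92 (SE 0.30, unadjusted p = 0.00970, edgeR adjusted p = 0.166). P051 was the highest library of that group for Srebf2 and the lowest for Srebf1, and without it the log2 fold change of Srebf1 was 1.09. With each library's trend on GC content and length removed, the unadjusted call was lost for both genes, at 0.28 for Srebf2 (unadjusted p = 0.166) and 0.39 for Srebf1 (unadjusted p = 0.210). Srebf1 has several start sites that give the SREBP-1a and SREBP-1c forms, which counts per gene do not separate.

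The INSIG genes did not go the same way as the SREBP genes. Insig2 (ENSMUSG00000003721, chromosome 1, 121232082 to 121260318), which encodes the second retention protein, was at 22.3, 20.4 and 24.9 CPM with HTR2C-negative and at 15.2, 19.5 and 15.0 CPM with HTR2C-positive medium. The groups did not overlap, with a log2 fold change of -0.44 (SE 0.19, unadjusted p = 0.0347, edgeR adjusted p = 0.265). It was -0.31 (unadjusted p = 0.121) scaled by total counts and -0.29 (unadjusted p = 0.131) with the GC and length trend removed. Insig1 was at 358, 221 and 399.7 CPM and at 246, 438 and 314 CPM, and its groups overlapped fully (0.03, SE 0.24). Its lowest libraries were N052 and P051, the pair with the highest correlation over all genes. Scap was at 3.80, 5.91 and 5.65 CPM and at 4.39, 7.61 and 6.47 CPM, with P052 and P053 above all HTR2C-negative libraries and P051 below 2 of them (0.26, SE 0.30).

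The 3 fatty acid genes of the list, of which Fasn and Acaca were low, lay apart between the groups. Fasn (ENSMUSG00000025153, chromosome 11, 120696672 to 120715373), fatty acid synthase, was at 0.796, 1.10 and 0.807 CPM and at 2.57, 2.52 and 1.995 CPM, from 9 to 16 and 33 to 45 reads. The log2 fold change was 1.38 (SE 0.47, unadjusted p = 0.0112, edgeR adjusted p = 0.176). Acaca (ENSMUSG00000020532, chromosome 11, 84020498 to 84292477), acetyl-CoA carboxylase, was at 2.12, 2.68 and 1.61 CPM and at 3.60, 4.57 and 3.33 CPM (0.84, SE 0.36, unadjusted p = 0.0358). Acly (ENSMUSG00000020917, chromosome 11, 100367179 to 100418826), which makes cytosolic acetyl-CoA from citrate, was at 18.4, 19.2 and 16.4 CPM and at 24.9, 26.01 and 20.1 CPM (0.40, SE 0.18, unadjusted p = 0.0495). In none of these 3 genes was a HTR2C-positive library within the HTR2C-negative range. Without P051 the log2 fold changes were 1.33, 0.90 and 0.38, and that of Acly then had an unadjusted p of 0.0805. Corrected for GC content and length, Acly was at 0.26 (unadjusted p = 0.152). Stard4, a carrier of cholesterol between membranes and an SREBP target, was at 10.7, 10.3 and 10.7 CPM and at 18.5, 10.3 and 11.2 CPM, with P051 well above the other 5 libraries (0.34, SE 0.25, and 0.04 without P051). Lpin1, a phosphatidate phosphatase, had 1, 0 and 5 reads and 0, 1 and 0 reads and was not tested. Other members share sequence with a gene on the opposite strand, namely Ggps1 with Arid4b over 257 bases, Cyp51 with Akap9 over 166 bases, Srebf1 with Rai1 over 109 bases and Acaca with Gm11437, which was at 0 CPM, over 19126 bases.

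**Figure D2:**
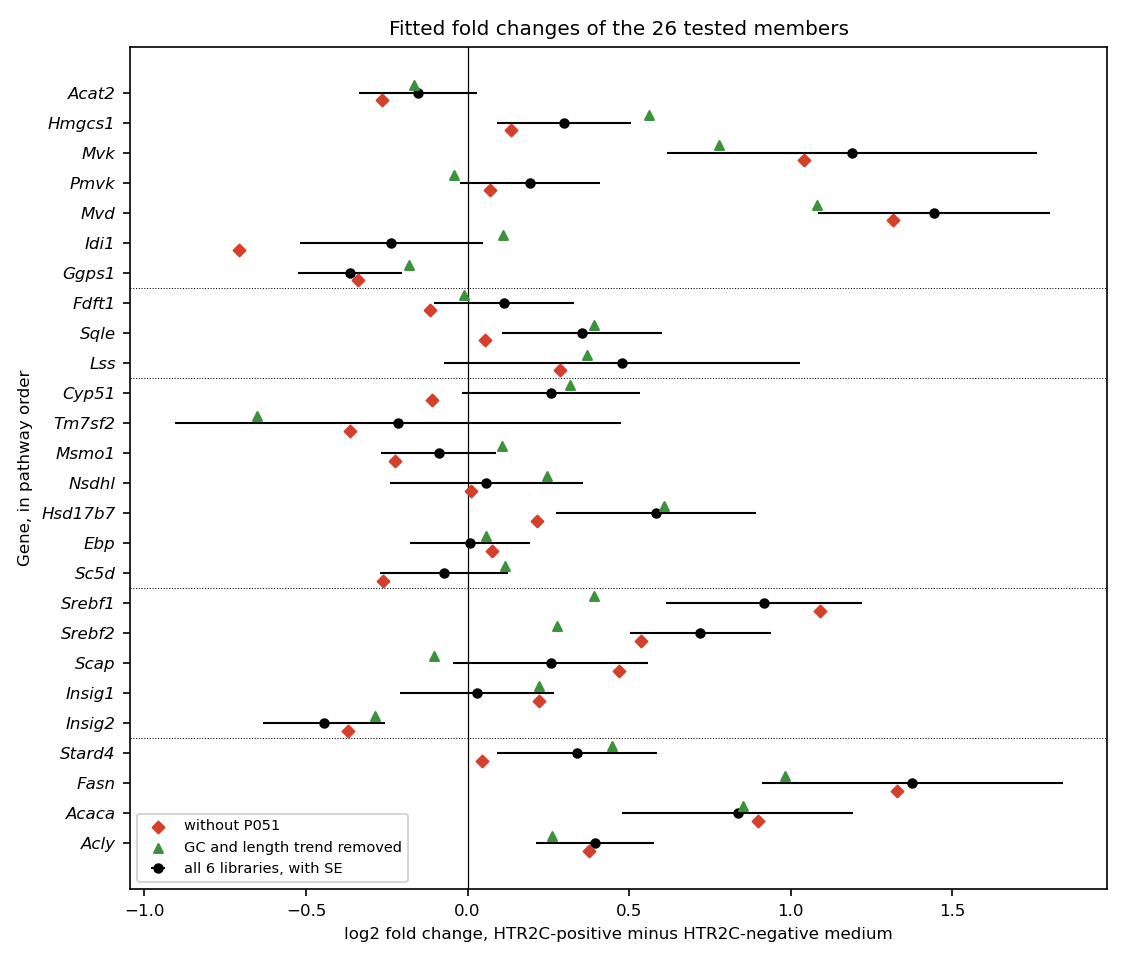
Log2 fold change (HTR2C-positive minus HTR2C-negative medium) of the 26 tested members in pathway order. Black circles with SE bars are the fit to all 6 libraries, red diamonds the fit without P051 and green triangles the fit with the trend on GC content and length removed. Mvd and Fasn lie farthest right in all 3 fits. With P051 left out, Fdft1 and Cyp51 move from right to left of zero. Idi1, already left of zero in the fit to all 6 libraries, then lies farther left.

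P051 was the highest of the 6 libraries for 14 of 26 members, where it was for 22.0% of all tested genes, and the lowest for 0 members, where it was for 19.4%. P051 was above both other HTR2C-positive libraries in 16 members, where it was for 37.4% of all tested genes. These were 6 of 7 tested mevalonate genes, 3 of 3 squalene and lanosterol genes and 4 of 7 later sterol genes, 1 of 5 regulators and 2 of 4 transport and lipid genes. Against the mean of P052 and P053, its CPM value was 2.21 times as high for Idi1, 1.92 times for Cyp51, 1.74 times for Sqle and 1.73 times for Stard4, and 0.656 times for Insig1 and 0.624 times for Scap. The mean level of the 26 members was 3.37, 3.43 and 3.45 log2 CPM in N051, N052 and N053, 3.92 in P051, 3.72 in P052 and 3.48 in P053, and the mean over all tested genes was 3.63 to 3.71 in the 6 libraries. On this scale P053 lay close to the HTR2C-negative libraries.

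P052 and P053, taken apart from P051, were both above every HTR2C-negative library for 8 members, where 17.5% of all tested genes were, and both below for 4, where 17.6% were. The 8 were Mvk, Mvd, Srebf1, Srebf2, Scap, Fasn, Acaca and Acly, and the 4 were Acat2, Idi1, Ggps1 and Insig2. In the edgeR fit without P051, 5 members were higher at an unadjusted p under 0.05 (8.07% of all tested genes) and 1, Idi1, was lower (9.05% of all), and 0 had an adjusted p under 0.05 (1.80% of all). With N052 left out as well, 6 members were higher (11.2% of all) and 4 lower (12.7%). Mvd, Srebf2 and Idi1 passed the adjusted threshold (10.9% of all), with log2 fold changes of 1.63, 0.66 and -0.79. N052 and P051 are the most alike pair and come from different groups, so leaving them out can by itself raise the number of calls. Over all genes it went from 0 to 1107, with only N051 and N053 against P052 and P053.

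**Figure D3:**
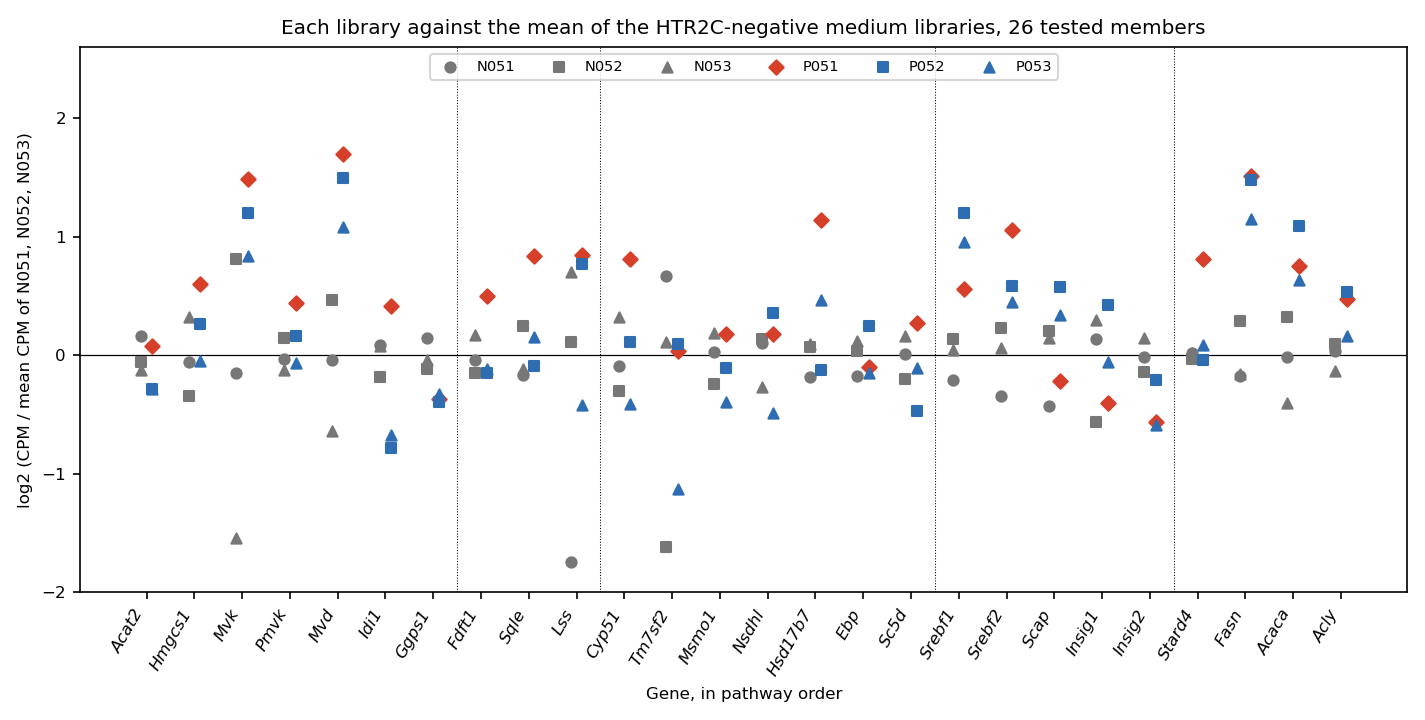
Log2 ratio of each library's CPM to the mean CPM of the HTR2C-negative libraries for the 26 tested members. Grey symbols are N051, N052 and N053, red diamonds P051, and blue symbols P052 and P053. The red diamond lies alone at the top for Idi1, Sqle, Cyp51, Hsd17b7 and Stard4, while red and blue symbols lie together above the grey ones for Mvd, Fasn, Srebf2, Srebf1 and Acaca.

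The members with the largest positive fold changes were mostly of high GC content, where the median over all tested genes was also positive. Of the 26 members, 8 had transcripts of at least 55% GC, a limit chosen after the values were seen, and 7 of these had positive fold changes with a median of 0.82. Over all tested genes at or above that limit (2218), 1863 had positive fold changes and the median was 0.39. At an unadjusted p under 0.05 (edgeR), 4 of the 8 members and 506 of these 2218 genes were higher. The 18 members under it had a median of 0.09, against -0.07 for all such genes. Mvd (59.2% GC), Mvk (59.3%), Srebf1 (59.8%), Srebf2 (58.0%) and Fasn (58.4%) were all among the GC-rich, and Acaca (49.1%) was not.

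With each library's trend on GC content and length removed, 4 members were higher at an unadjusted p under 0.05 (3.90% of all tested genes) and 0 were lower (5.95%), by edgeR, with 0 members past the adjusted threshold. The 4 were Mvd (log2 fold change 1.08, unadjusted p = 0.00726), Fasn (0.98, 0.0469), Acaca (0.85, 0.0321) and Hmgcs1 (0.56, 0.0181). Both SREBP genes, Acly, Ggps1 and Insig2 were no longer among those with an unadjusted p under 0.05. The median of the members was 0.25, nearly that of the uncorrected fit, against 0.003 for all tested genes. Positive values again numbered 19 of 26, against 5113 of all 10177, but not for the same members. Idi1, Msmo1 and Sc5d had turned positive, and Pmvk, Fdft1 and Scap negative.

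**Figure D4:**
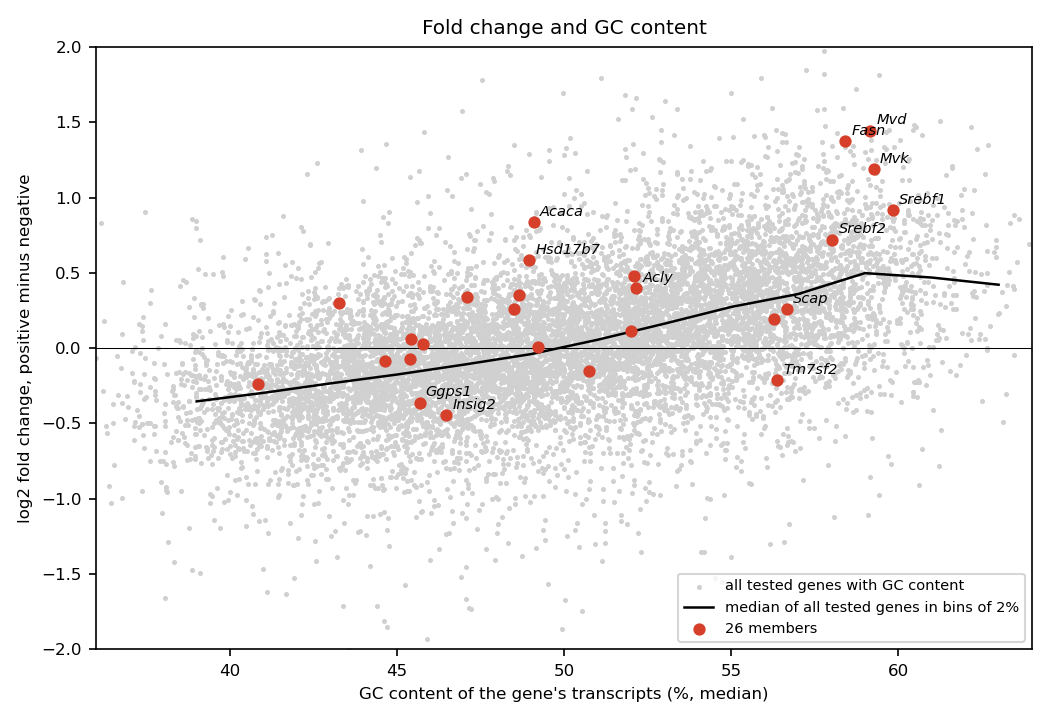
Log2 fold change against the GC content of a gene's transcripts. Grey points are all tested genes with a GC value (67 lie outside the axes), the black line is their median in bins of 2% and red points are the 26 members. The line climbs from -0.35 near 39% to 0.50 near 59%, and Mvd, Fasn, Mvk, Srebf1 and Srebf2 lie above it at its upper end.

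The other genes of the pathway, from lists named beside the members, were also without a call at the adjusted threshold (edgeR, 0 of 59 tested). Of 12 genes for SREBP cleavage and sterol-regulated protein degradation, 1 had higher values at an unadjusted p under 0.05 (8.33%, against 7.90% of all tested genes) and 0 had lower ones (8.71% of all). In that list 9 fold changes were positive (75%, against 52.1% of all), with a median of 0.23, which was 0.11 with the GC and length trend removed and 0.36 scaled by total counts. Vcp, the ATPase that pulls ubiquitinated proteins from the endoplasmic reticulum, was at 103, 145 and 121 CPM with HTR2C-negative and at 145, 177 and 169 CPM with HTR2C-positive medium (0.41, SE 0.16, unadjusted p = 0.0248). The groups only just separated, between N052 and P051. The ubiquitin ligase gene Marchf6 and the cofactor gene Aup1 had log2 fold changes of 0.40 and 0.50 with unadjusted p of 0.0782 and 0.0614.

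COPII coat genes, whose vesicles carry SCAP and SREBP to the Golgi among much other cargo, had a median log2 fold change of -0.10. At an unadjusted p under 0.05, 4 of 10 had lower values (8.71% of all tested genes) and 0 higher (7.90%). Scaled by total counts, the median was 0.04 and 0 of the 10 were lower, where 390 of all 10177 tested genes were. With the GC and length trend removed, 3 were lower (5.95% of all) and the median was -0.09. Without P051, 3 were lower (9.05% of all) and the median was -0.09. Sar1b, the GTPase that starts the coat, was at 159, 131 and 148 CPM and at 99.7, 112 and 115 CPM (-0.42, SE 0.15, unadjusted p = 0.0128). Sec23a was at 25.1, 21.7 and 22.8 CPM and at 18.4, 12.3 and 17.1 CPM (-0.54, SE 0.20). For these genes the groups did not overlap, while Sec23b (-0.42) and Sec24a (-0.49) had overlapping groups.

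Of 16 tested genes of fatty acid synthesis and other SREBP targets, 13 had positive fold changes (81.2%, against 52.1% of all tested genes; median 0.31), and by unadjusted p under 0.05 the count was 1 higher (7.90% of all) and 0 lower (8.71%). Corrected for GC content and length, the list had a median of 0.10 with 11 positive and 0 higher (3.90% of all). Without P051, 10 were positive with 2 higher (8.07% of all). Scaled by total counts 4 were higher, where 1150 of all 10177 tested genes were. Aacs, which activates acetoacetate for lipid synthesis, was at 2.83, 3.09 and 5.04 CPM and at 6.45, 8.21 and 7.68 CPM (1.02, SE 0.30, unadjusted p = 0.00485, edgeR adjusted p = 0.139). All its HTR2C-positive libraries were above the HTR2C-negative ones. Tmem97, a sterol-regulated membrane protein gene, had a log2 fold change of 0.61, the citrate carrier gene Slc25a1 one of 0.45 and the pentose phosphate gene Pgd one of 0.32. In the fit corrected for GC content and length, Aacs was at 0.58 and Slc25a1 at 0.01.

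In the isoprenoid branch and prenylation list, the median was -0.08. Here 2 of 13 genes had lower values by unadjusted p under 0.05 (8.71% of all tested genes), and 0 had higher ones (7.90%). Scaled by total counts, the median was 0.07, with 0 lower and 1 higher, against 390 and 1150 of all 10177 tested genes. Dhdds, a subunit of the enzyme that makes dolichol precursors, was at 19.6, 21.9 and 21.4 CPM and at 13.0, 14.0 and 18.3 CPM (-0.48, SE 0.19, unadjusted p = 0.0291). Pggt1b, the beta subunit of the transferase that attaches the geranylgeranyl group, was at 65.1, 67.4 and 66.3 CPM and at 50.3, 34.4 and 61.8 CPM (-0.44, SE 0.19, unadjusted p = 0.0411). In both genes every HTR2C-positive library was below every HTR2C-negative one, as for Ggps1. The protease gene Zmpste24, which trims farnesylated proteins, also had groups apart (-0.34, unadjusted p = 0.0621), while Coq2 of ubiquinone synthesis had overlapping groups (0.81). Groups were thus apart on the lower side for 3 of 13 genes (23.1%, against 11.5% of all tested genes). In the edgeR fit corrected for GC content and length, Zmpste24 was at -0.07 (unadjusted p = 0.640) and Pggt1b at -0.26 (unadjusted p = 0.166). Dhdds was at -0.60 in that fit (unadjusted p = 0.00899), and the list had a median of 0.02.

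Of the 8 genes of oxysterols and sterol esters, 0 had an unadjusted p under 0.05. Their median was 0.11 and, without P051, -0.06 with 1 gene lower (9.05% of all tested genes). Ch25h, which makes 25-hydroxycholesterol, was at 58.4, 75.3 and 67.8 CPM and at 100.4, 59.9 and 68.5 CPM (0.18, SE 0.20). Its highest library was P051, as for Sqle, Cyp51 and Idi1, and without P051 the log2 fold change was -0.05. Soat1, which esterifies cholesterol, was at 131, 136 and 119 CPM and at 131, 98.5 and 101 CPM (-0.22, SE 0.16). Cyp27a1 (0.28) and Osbp (0.20) also had overlapping groups.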

How the data were processed

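Trizol extraction and the VAHTS Universal V6 kit are stated in the labels' protocols, and fastp, HISAT2, StringTie, edgeR and GRCm39 in the submitters' processing notes. The sources used here do not give the versions, annotation release, strand setting or handling of multiply mapped reads. The deposited counts are whole reads per gene, not normalized, per the file headers. The deposited FPKM values equal count per length and total (largest relative difference 3.8e-07).

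The counts were tested with edgeR 4.0.16 in R 4.3.3: filterByExpr, TMM, a robust quasi-likelihood F test with no covariate, and Benjamini-Hochberg adjustment over 10177 genes at 0.05. A positive log2 fold change means a higher level with HTR2C-positive medium. CPM values are TMM-scaled. The alternatives were RLE factors, total counts, no filter, a filter of 1 CPM in 3 libraries, limma-voom and limma on log2(FPKM + 1) with limma 3.58.1, DESeq2 1.42.0, a replicate block, each library left out, N052 and P051 left out, and per-library loess trends (span 0.3) on transcript GC content (GENCODE M21, all 29 members) and length. The fits were tested on simulated data. The members and lists were chosen with earlier results of these data known. All members are named, and of each further list the 4 tested genes with the smallest p, of which 1 is not reported here.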

Additional observations from a re-analysis of the deposited data

How the results depend on the processing

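Over 16 alternative settings the count of 6 members with higher values at an unadjusted p under 0.05 stayed within 4 to 7, while that of 2 with lower values depended on the setting. It was 0 with total counts, the replicate block, the GC and length trend removed and limma on log2(FPKM + 1), 1 without the count filter, 4 without N052 and P051, and 0 to 2 with single libraries left out. The shares over all tested genes moved as well. Higher values made up 3.90% with the GC and length trend removed, 7.90% uncorrected and 11.2% without N052 and P051. Lower values made up 5.95%, 8.71% and 12.7%. With total counts, 1150 of all 10177 genes were higher and 390 lower. The median log2 fold change of the members was 0.073 to 0.38 with single libraries left out, lowest without P051, and 0.086 without N052 and P051. Over all genes, 422 were called without the count filter, 386 by DESeq2, 1107 without N052 and P051 and 0 to 206 with single libraries left out (206 without N052, 186 without P051), against 0. Of the members, 2 were called without the count filter (Mvd, adjusted p = 0.00955, and Srebf2, adjusted p = 0.0263), 3 without N052 and P051, and 0 to 1 with single libraries left out, against 0. Of 46 genes followed, 14 changed sign in some setting. With total counts, Msmo1 was at 0.064 and Sc5d at 0.091. With limma-voom Ebp was at -0.0073. With the GC and length trend removed, Pmvk was at -0.043, Idi1 at 0.11, Fdft1 at -0.011, Msmo1 at 0.11, Sc5d at 0.12 and Scap at -0.10. Without N052 and P051, Hmgcs1 was at -0.014, Fdft1 at -0.19, Cyp51 at -0.25 and Cyp27a1 at -0.45. With limma on log2(FPKM + 1), Msmo1 was at 0.039 and Sc5d at 0.041. With single libraries left out, the range was -0.12 to 0.23 for Fdft1, -0.11 to 0.51 for Cyp51, -0.64 to 0.26 for Tm7sf2, -0.22 to 0.048 for Msmo1, -0.12 to 0.28 for Nsdhl, -0.13 to 0.091 for Ebp, -0.26 to 0.091 for Sc5d, -0.22 to 0.22 for Insig1, -0.046 to 0.33 for Ch25h and -0.62 to 0.61 for Cyp27a1. Apart from P051 and N052 as given, the cause of these shifts was not tested. Deviations of same-numbered libraries from their group means correlated at -0.139, -0.215 and 0.0478, and those of N052 and P051 at 0.288. With 3 libraries per group these correlations depend on one another, so they cannot tell whether the sample numbers pair the libraries. The replicate block gave 6 members higher, 0 lower and 0 called, with a median of 0.23. Depth limits Fasn, Mvk, Lss and Tm7sf2, with at most 56 reads in any library, and Fdps, Dhcr7 and Lpin1, which could not be tested.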
